A study of Mus musculus with 10 samples.

Results

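Angptl4 and 8 genes of the PPAR response to fasting (Pdk4, Plin2, Cpt1a, Acadm, Acaa2, Ppard, Pparg and Hilpda) were followed in macrophages of the mouse small intestine after experimental stroke. The 9 genes were chosen by gene name among 17279 listed genes, and Angptl4 was also picked for its rise after pMCAO in these same libraries. Its values in that comparison are therefore given as a description, without a test. All 9 genes passed the filter on low counts, as did 16949 of the listed genes.

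The libraries came from mice labelled C57BL6/J, 24 h after sham surgery or after permanent middle cerebral artery occlusion (pMCAO), in which an artery that feeds the brain is blocked. The mucosal layer was peeled from the whole small intestine, and lamina propria macrophages were sorted as CX3CR1-GFP+ cells in both groups. The labels give no reporter allele, age, sex or feeding state. There were 5 libraries a group, labelled as biological replicates, and replicate 1 of each group carries a name that marks it as a pool.

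Peroxisome proliferator-activated receptors (PPARs) are nuclear receptors for fatty acids that bind DNA together with a retinoid X receptor and switch on genes for the transport, storage and oxidation of fat. Fasting releases fatty acids from adipose tissue, and Angptl4 and Pdk4 are among the genes that respond most widely to them. Angptl4 is secreted and inhibits lipoprotein lipase, and in macrophages it is known to limit the uptake of fatty acids from triglyceride-rich lipoproteins. The PPAR response element consists of a pair of AGGTCA hexamers in the same orientation with 1 base between them.

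The promoter sequences are shown because they differ in whether they hold the hexamer that PPARs bind. In RefSeq on GRCm38.p6, 7 of the 9 genes had a promoter entry, with 10 starts in all, and Angptl4 and Acaa2 had none. The 250 bases before each start were searched on both strands for the hexamer AGGTCA, for its direct repeat with 1 base between, which contains the hexamer, and for ACGTG, the core of the site bound by hypoxia-inducible factors. Each line gives up to 30 bases in the direction of the gene, with the match in capitals, and TGACCT and CACGT are matches on the opposite strand. Pparg had 3 starts, of which entry 3 held no hexamer, and the labels upstream and downstream only order entries 1 and 2.
Plin2: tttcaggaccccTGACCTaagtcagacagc
Cpt1a: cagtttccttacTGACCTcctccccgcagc
Acadm: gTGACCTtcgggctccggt
Pparg, upstream start: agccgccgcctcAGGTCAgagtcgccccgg
Pparg, downstream start: agggacgcgaggAGGTCAaga
Ppard: agctgctgctccCACGTctgactgcagag
Hilpda: gatggccagcggACGTGccccagggcgag

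The hexamer was present before 5 of the 10 starts, which belong to Plin2, Cpt1a, Acadm and Pparg, and before 4607 of all 32851 starts in the table (14.02%). The direct repeat was before none of the 10 starts and before 11 of all starts (0.0335%). The hypoxia core was before 2 of the 10, at Ppard and Hilpda, and before 5444 of all starts (16.6%). Hilpda had 2 starts, and only entry 2 held this core. The Plin2 window lies between genes at chr4:86670260-86670289 on the minus strand, and its match begins 218 bases before the start. The Cpt1a window, at chr19:3323195-3323224 on the plus strand, lies in an intron of Cpt1a and its match begins 94 bases before the start of the entry. The Acadm window at chr3:153944875-153944893 on the minus strand lies between genes, with the match at the edge of the region searched. Both Pparg windows lie in annotated exons of Pparg, at chr6:115361104-115361133 and chr6:115362328-115362348 on the plus strand. The Ppard window is between genes at chr17:28232529-28232557, and the Hilpda window is in an exon of Hilpda at chr6:29272571-29272599, both on the plus strand. Only exact letters in the 250 bases before each start were searched, so a response element with other letters or elsewhere would not be found. These matches are letters in a sequence and no binding was measured.

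Total counts per library ranged from 18894151 to 60665972 in the sham group and from 6430643 to 28672285 in the pMCAO group, a log2 difference of -1.18 (two-sided exact permutation test, p = 0.0476, adjusted p = 0.524 over 11 library measures). Levels are therefore given as CPM, counts divided by the library's total and put on 1 common scale, with TMM-adjusted totals, which removes depth but not the lower precision of the shallower libraries. All 10 macrophage markers were listed, and their summed level was 2841 to 7707 CPM in sham and 3978 to 8443 CPM in pMCAO libraries. B and plasma cell transcripts summed to 2961 to 74483 CPM and to 2995 to 83645 CPM, and exceeded the macrophage sum in 7 of 10 libraries. Sham replicate 5 and pMCAO replicate 4 had 1756 and 4461 CPM of Xist, the RNA that coats the inactive X chromosome of female cells, against 1.39 to 4.92 CPM in the other 8 libraries. In these bulk libraries, fewer cells of a type and less RNA per cell cannot be told apart.

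Angptl4 (ENSMUSG00000002289) lies on GRCm38 chr17:33773750-33781830, minus strand. In the sham libraries, replicates 1 to 5, Angptl4 was at 2.09, 3.27, 4.84, 2.52 and 3.60 CPM. In the pMCAO libraries it was at 6.60, 13.6, 12.03, 8.37 and 6.71 CPM. The groups did not overlap, and the lowest pMCAO library, replicate 1, was the shallowest of all 10. The means were 3.26 ± 1.06 CPM in sham and 9.45 ± 3.18 CPM in pMCAO (SD, n = 5 each), a 2.90-fold ratio of means and a fitted log2 fold change of 1.53 (SE 0.36). Since Angptl4 was picked for this rise, the lack of overlap, which 76 genes showed in this direction (0.448% of those tested), describes the choice. These levels rest on 40 to 361 counts per library.

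The Angptl4 log2 fold change was between 1.27, with limma-voom sample weights, and 1.72, without sham replicate 3. It was 1.51 without both pooled libraries and 1.61 without both Xist libraries. Its spread within groups gave a biological coefficient of variation of 41.9%, and 19.4% of the 2127 tested genes of like level had a lower one. Picking a gene for its rise in these same libraries can favour a small spread, so this place among genes is a description only. The coefficient of variation over libraries was 32.6% in sham and 33.6% in pMCAO.

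Epithelial cells of the gut are a known source of Angptl4, so their markers are set beside it. The 10 epithelial markers summed to 447 to 908 CPM in sham and 130 to 1301 CPM in pMCAO libraries, with a log2 difference of -0.60 (two-sided exact permutation test, p = 0.397, adjusted p = 0.968). In sham replicates 1 to 5 the epithelial sum was 908, 447, 688, 604 and 746 CPM. Angptl4, in the same order, was at 2.09, 3.27, 4.84, 2.52 and 3.60 CPM. In pMCAO replicates 2 and 3, which had the most Angptl4, the epithelial sum was 989 and 1301 CPM. In pMCAO replicate 1, which had the least Angptl4 of its group (6.60 CPM), the sum was 474 CPM. In pMCAO replicates 4 and 5 it was 130 and 196 CPM, below every sham library. Angptl4 was at 8.37 and 6.71 CPM in these replicates. It was above every sham library in all 5 pMCAO libraries, which is the rise it was picked for. None of the 6 adipocyte markers (among them Adipoq and Lep) was listed in the table. Of the endothelial markers 5 of 6 were listed, with sums of 37.9 to 103 CPM in sham and 24.8 to 82.7 CPM in pMCAO. The sums of stromal, T cell, neutrophil, dendritic cell, eosinophil and endothelial markers gave exact permutation p-values of 0.111 (T cells, log2 difference -0.33) to 0.968 (neutrophils), and the T cell difference was -0.44 without sham replicate 4 (exact permutation p = 0.0317, not adjusted). The part of the epithelial and endothelial cells in the level of Angptl4 was not tested.

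**Figure D1:**
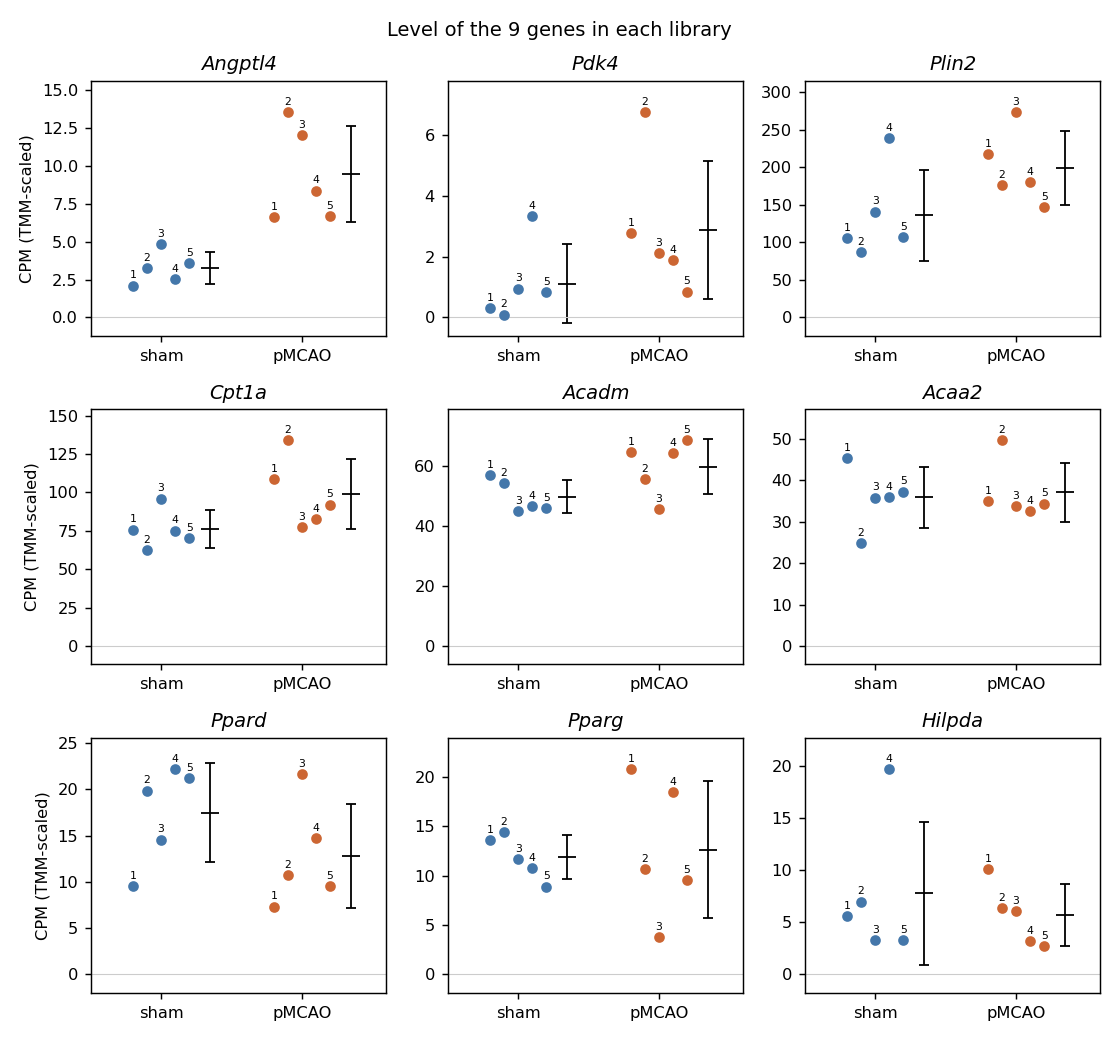
Each panel plots 1 gene's level in CPM after TMM scaling (vertical axis, from about 0) in the 5 sham and 5 pMCAO libraries, with points for libraries numbered by replicate and bars for the group mean ± SD. The 5 pMCAO libraries lie above all sham libraries for Angptl4, picked for its rise, and the groups overlap for the other 8 genes.

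Pdk4, a kinase that switches off pyruvate dehydrogenase and so spares glucose during fasting, is on chr6:5483351-5496309, minus strand. In sham libraries 1 to 5 it was at 0.314, 0.0970, 0.951, 3.33 and 0.841 CPM, from 3 to 65 counts. In pMCAO libraries it was at 2.79, 6.76, 2.12, 1.89 and 0.851 CPM, from 19 to 180 counts. Of the pMCAO libraries 4 of 5 were above the sham mean and only replicate 2 was above the highest sham library. The means were 1.11 ± 1.29 and 2.88 ± 2.28 CPM, with a log2 fold change of 1.40 (SE 0.87) and an adjusted p of 0.922 in edgeR's quasi-likelihood test over all genes. Pdk4 had the largest spread of the 9 genes (biological coefficient of variation 89.9%). Its log2 fold change was 0.79 without pMCAO replicate 2 and 2.37 without sham replicate 4.

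Plin2 coats the surface of lipid droplets and is on chr4:86648386-86670060, minus strand. It was at 105.6, 86.8, 141, 239 and 107 CPM in the sham libraries and at 218, 176, 274, 180 and 147 CPM in the pMCAO libraries. All 5 pMCAO libraries were above the sham mean, and 1 was above sham replicate 4, the highest of its group. The means were 136 ± 60.9 and 199 ± 48.9 CPM (log2 fold change 0.55, SE 0.27, edgeR adjusted p = 0.922). Without sham replicate 4 the log2 fold change was 0.84, and without pMCAO replicate 3 it was 0.40.

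Hilpda, a small protein of lipid droplets that inhibits the lipase Pnpla2 and is induced by hypoxia and by fatty acids, is on chr6:29272488-29275446, plus strand. Sham replicate 4 had 19.7 CPM of Hilpda, and the other sham libraries had 3.27 to 6.98 CPM. The pMCAO libraries were at 10.1, 6.39, 6.06, 3.20 and 2.75 CPM. The groups overlapped throughout, with means of 7.78 ± 6.87 and 5.70 ± 2.96 CPM and a log2 fold change of -0.45 (SE 0.55, edgeR adjusted p = 0.945). It was 0.23 without sham replicate 4, so the sign depended on 1 library.

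Sham replicate 4 was the highest of its group for Pdk4, Plin2, Ppard and Hilpda. This library also had the highest sum of 7 genes known to respond to tissue dissociation, 11178 CPM, against 3415 to 7785 CPM in the other sham libraries and 4825 to 8801 CPM in the pMCAO libraries. The part of this response in the levels of the 4 genes was not tested. pMCAO replicate 2 was the highest of its group for Angptl4, Pdk4, Cpt1a and Acaa2, and it had the highest sum of B and plasma cell markers, 83645 CPM, whose part was not tested either.

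Cpt1a links fatty acids to carnitine for entry into mitochondria, the step that limits their oxidation, and is on chr19:3322334-3385733, plus strand. It was at 75.7, 62.6, 95.9, 75.0 and 70.3 CPM in sham and at 109, 134, 77.3, 82.4 and 92.0 CPM in pMCAO libraries. Every pMCAO library was above the sham mean and 2 were above the highest sham library. The means were 75.9 ± 12.3 and 98.8 ± 22.9 CPM (log2 fold change 0.38, SE 0.18, edgeR adjusted p = 0.922). Without pMCAO replicate 2 the log2 fold change was 0.24.

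Acadm, the mitochondrial dehydrogenase for medium-chain fatty acids, is on chr3:153922357-153944632, minus strand. It was at 57.1, 54.4, 45.1, 46.6 and 45.9 CPM in sham and at 64.8, 55.8, 45.6, 64.4 and 68.6 CPM in pMCAO libraries. Here 3 of the 5 pMCAO libraries were above the highest sham library and replicate 3 was among the lowest sham values. The means were 49.8 ± 5.50 and 59.8 ± 9.25 CPM (log2 fold change 0.26, SE 0.16, edgeR adjusted p = 0.922). Acadm was the least variable of the 9 genes, with a biological coefficient of variation of 23.6%, and 10.2% of 1959 genes of like level varied less.

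Acaa2, the thiolase of the last step of mitochondrial beta-oxidation, is on chr18:74779197-74806208, plus strand. It was at 45.5, 24.8, 35.9, 36.0 and 37.3 CPM in sham and at 35.0, 49.7, 33.8, 32.7 and 34.4 CPM in pMCAO libraries. The means, 35.9 ± 7.35 and 37.1 ± 7.10 CPM, differed by a log2 fold change of 0.049 (SE 0.19, edgeR adjusted p = 0.983), and 4 of 5 pMCAO libraries were below the sham mean. Without pMCAO replicate 2 the sign turned, to -0.082.

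Ppard, the receptor PPARδ that macrophages share with most tissues, is on chr17:28232700-28301474, plus strand. It was at 9.50, 19.9, 14.5, 22.2 and 21.2 CPM in sham and at 7.33, 10.7, 21.6, 14.7 and 9.52 CPM in pMCAO libraries. In pMCAO 4 of 5 libraries were below the sham mean, but only replicate 1 was below the sham range and the others were within it. The means were 17.5 ± 5.33 and 12.8 ± 5.62 CPM (log2 fold change -0.45, SE 0.33, edgeR adjusted p = 0.922), and the value was -0.72 without pMCAO replicate 3.

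Pparg, the receptor PPARγ of fat cells and of alternatively activated macrophages, is on chr6:115360951-115490399, plus strand. It was at 13.6, 14.4, 11.7, 10.8 and 8.89 CPM in sham and at 20.8, 10.6, 3.74, 18.5 and 9.52 CPM in pMCAO libraries. The pMCAO libraries lay on both sides of the sham range, with a coefficient of variation of 55.1% against 18.6% in sham, a difference that was not tested. The means were 11.9 ± 2.21 and 12.6 ± 6.96 CPM (log2 fold change 0.086, SE 0.39, edgeR adjusted p = 0.986). Its sign turned in 7 of 19 alternative fits, which ranged from -0.19, without both Xist libraries, to 0.31, without pMCAO replicate 3.

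Over the 9 genes, 7 had a log2 fold change above 0, with a median of 0.26, where 49.4% of all genes tested were above 0 and their median was -0.0059. The 7 include Angptl4, which was picked for being higher, and the count was 6 without both pooled libraries and 6 without both Xist libraries. No member passed a false discovery rate of 0.05 in edgeR, which called 0 of 16949 genes (0%), while 383 genes (2.26%) were higher and 416 (2.45%) lower at an unadjusted p under 0.05. Of the 8 genes beside Angptl4, 0 reached an unadjusted p under 0.05 in edgeR. DESeq2 called 3 genes, none of them a member.

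**Figure D2:**
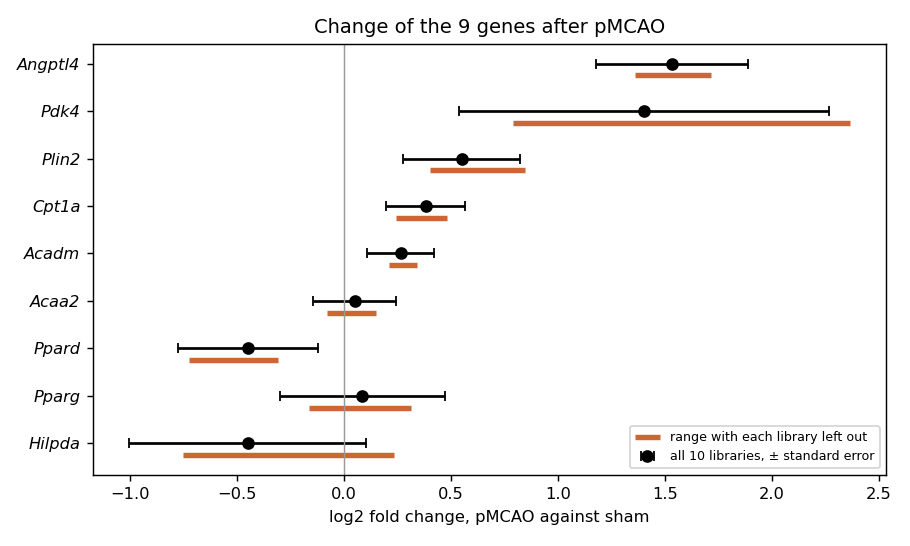
Points show each gene's log2 fold change of pMCAO against sham (horizontal axis) with bars for the standard error from the edgeR fit, and thick lines show the range when each of the 10 libraries was left out in turn. Angptl4, picked for its rise, stays between 1.36 and 1.72, Pdk4 spans 0.79 to 2.37, and the lines of Acaa2, Pparg and Hilpda cross 0.

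Levels were compared between genes per kilobase of exon. In sham libraries the order was Plin2 at 38.7, Acaa2 at 23.7, Acadm at 12.7, Cpt1a at 9.93, Hilpda at 7.05, Pparg at 4.02, Ppard at 2.32, Angptl4 at 0.921 and Pdk4 at 0.315 CPM per kilobase. Plin2 had a level above 93.0% of tested genes and Angptl4 a level above 19.4%. Plin2 was above Acaa2 and Acaa2 above Acadm in 10 of 10 libraries, although the sham ranges of Plin2 and Acaa2 overlapped. Neighbours that did not differ beyond their spread were Acadm and Cpt1a, in order in 8 of 10 libraries, and Hilpda and Pparg, in order in 6 of 10, with overlapping ranges in both groups. Cpt1a was above Hilpda and Pparg above Ppard in 9 of 10 libraries, and their ranges overlapped in 1 of the groups. With the longest transcript as length, and means over both groups, Acadm came above Acaa2, so 2 of the 9 genes changed rank.

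The genes of low level were Ppard, Angptl4 and Pdk4. Ppard was above Angptl4 in 5 of 5 sham libraries and in 0 of 5 pMCAO libraries, where the means were 1.70 and 2.67 CPM per kilobase. This exchange follows from the rise that Angptl4 was picked for together with the lower Ppard mean. It also depends on the length used, as the exons of Ppard cover 7514 bases and its longest transcript 3726. Per kilobase of the longest transcript, the Ppard mean stayed above the Angptl4 mean after pMCAO. Angptl4 was above Pdk4 in 9 of 10 libraries, with sham replicate 4 as the exception, and the ranges of both these pairs overlapped in both groups.

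**Figure D3:**
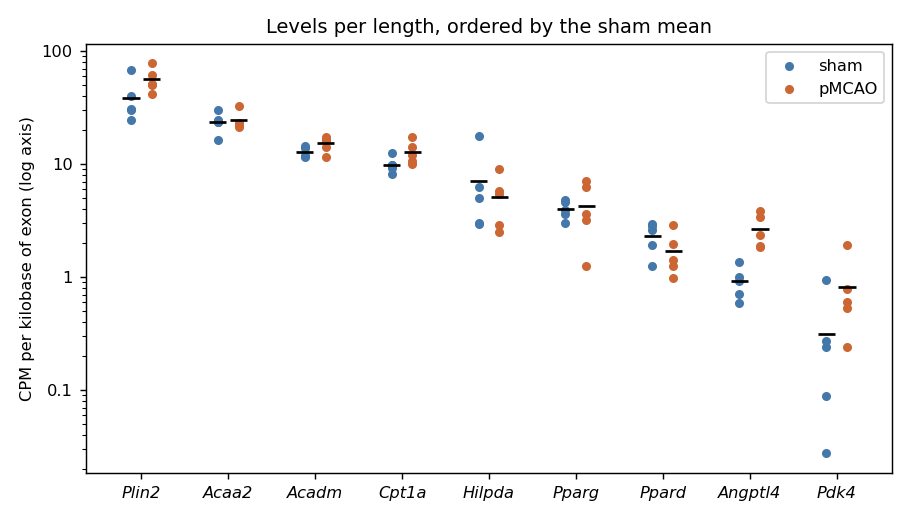
Points give each library's level in CPM per kilobase of exon (vertical log axis) for the 9 genes ordered from left to right by their sham mean, with sham and pMCAO side by side and short black lines at the group means. The sham means run from 38.7 for Plin2 to 0.315 for Pdk4, and the Ppard and Angptl4 means change places after pMCAO. They do not change places per kilobase of the longest transcript.

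Whether the other genes varied with Angptl4 from library to library within a group was examined on log2 CPM after subtraction of each group's mean, over 10 libraries and 8 relations with exact permutation within groups (14400 rearrangements, two-sided). The most marked relation was with Acadm, which was lower where Angptl4 was higher (r = -0.73, exact permutation p = 0.025, adjusted p = 0.2, and rho = -0.75, exact permutation p = 0.0235, adjusted p = 0.188). Without sham replicate 3 and pMCAO replicate 2, whose Angptl4 lay farthest from the median, r was -0.78. None of the 8 relations passed the adjustment. For Ppard r was 0.47 (exact permutation p = 0.204, adjusted p = 0.644, and rho = 0.48, exact permutation p = 0.195, adjusted p = 0.614) and 0.87 without those 2 libraries. For Cpt1a r was 0.29 (exact permutation p = 0.448, adjusted p = 0.687, and rho = 0.030, exact permutation p = 0.948, adjusted p = 0.949) and -0.79 without them, so its sign rested on those libraries.

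Among 11206 genes with at least 5 CPM, and the members, the 5 most like Angptl4 in this within-group measure over 10 libraries were Golga4 (r = 0.91), Bcl2l13 (0.90), Gm12693 (0.89), Gpatch8 (0.88) and Ext2 (0.87). By level over the same libraries, groups included, they were Gdap2 (r = 0.97), Rbsn (0.88), Uxs1 (0.88), Bcap29 (0.87) and Scarb2 (0.86), a measure that shares the contrast Angptl4 was picked for. Of the members, Ppard ranked highest by the within-group measure, at place 1207, and Cpt1a by level, at place 249. These are the top of a long ranking over few libraries and are given without a test.

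The rest of the pathway was described with 9 lists of genes around PPAR signalling and fatty acid use, which leave out the 9 genes above. Of 103 genes 87 were tested, 51 of them (58.6%) had a log2 fold change above 0, against 49.4% of all genes, and their median was 0.056. In edgeR 0 of the 87 passed the false discovery rate of 0.05, and 1, Pnpla2, had an unadjusted p under 0.05. Pnpla2, the lipase that begins the breakdown of stored triglyceride, was at 21.6 ± 3.20 CPM in sham and 29.7 ± 7.01 CPM in pMCAO libraries (n = 5 each), a log2 fold change of 0.46 (SE 0.20, edgeR adjusted p = 0.922). The adjusted p of every gene named from these lists was at least 0.922.

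Of the receptors, their partners and coregulators 11 of 14 were above 0 (median 0.12). The 2 with the smallest p were the coactivator Ncoa1, with 91.5 ± 6.85 CPM in sham and 111 ± 16.7 CPM in pMCAO libraries (log2 fold change 0.28), and Lpin1, a phosphatase of lipid synthesis that also acts with PPARα, with 30.9 ± 4.92 and 24.3 ± 4.46 CPM (-0.35). Ppara, the main fasting receptor of the liver, was near the limit of measurement, at 2.11 ± 1.81 CPM in sham and 1.27 ± 1.30 CPM in pMCAO libraries. It is named for its role and outside the rule for named genes.

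In the family of Angptl4 and the lipoprotein lipase system 4 of 9 genes were above 0 (median -0.066), and the median turned above 0 in 8 of 19 alternative fits, up to 0.54 with the stricter filter. Angptl1, a related secreted protein, was at 3.12 ± 1.95 CPM in sham and 7.26 ± 6.12 CPM in pMCAO (log2 fold change 1.21, SE 0.67), and 3 of 5 pMCAO libraries exceeded its sham mean. Vldlr, a receptor for triglyceride-rich lipoproteins, was at 1.36 ± 1.12 and 0.499 ± 0.437 CPM (-1.46, SE 1.01). Lpl, the lipase that Angptl4 inhibits and named here for that reason after its values were seen, was at 21.4 ± 9.71 CPM in sham and 32.2 ± 16.5 CPM in pMCAO libraries (0.59, SE 0.42, edgeR adjusted p = 0.922).

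Among genes that control pyruvate dehydrogenase 3 of 10 were above 0 (median -0.10). They include Pdk1, a kinase of the Pdk4 family, at 18.6 ± 4.61 CPM in sham and 27.3 ± 8.09 CPM in pMCAO (log2 fold change 0.55, SE 0.25), and its relative Pdk2 at 10.1 ± 1.86 and 14.2 ± 8.70 CPM (0.49, SE 0.36). Of the lipid droplet genes, 8 of 14 were tested and 5 were above 0 (median 0.044), and the median turned below 0 in 5 of 19 alternative fits, to -0.14 with limma-voom sample weights. Plin3, a droplet coat protein like Plin2, was at 11.7 ± 4.56 and 9.87 ± 3.56 CPM (-0.25, SE 0.33). Plin1, Plin4, Plin5, Cidea and Cidec, droplet proteins of fat or muscle cells in the main, were not listed in the table.

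For uptake, binding and activation of fatty acids 10 of 11 genes were above 0 (median 0.18, from -0.063 with limma-voom sample weights to 0.38 without both pooled libraries). Acsl1, which activates fatty acids by linking them to coenzyme A, was at 40.1 ± 7.19 CPM in sham and 50.5 ± 8.40 CPM in pMCAO (log2 fold change 0.33, SE 0.18). Fabp1, a fatty acid binding protein of enterocytes and hepatocytes, was at 52.7 ± 43.0 and 118 ± 133 CPM (1.17, SE 0.78). It ranged from 22.7 to 346 CPM within the pMCAO group alone.

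In the carnitine shuttle 2 of 4 genes were above 0 (median 0.015, below 0 in 8 of 19 alternative fits), with the carnitine importer Slc22a5 at a log2 fold change of 0.41 (SE 0.26) and Crat at -0.17 (SE 0.21). In mitochondrial fatty acid oxidation, to which Acadm and Acaa2 also belong, 6 of the 15 listed genes beside them were above 0 (median -0.062). The isomerases Eci2 (-0.40, SE 0.21) and Ech1 (-0.20, SE 0.15) had all 5 pMCAO libraries below the sham mean. In peroxisomal oxidation 8 of 11 were above 0 (median 0.13), with the enzyme Hsd17b4 at 0.30 (SE 0.16), for which all 5 pMCAO values exceeded the sham mean. For ketone bodies 2 of 5 were above 0 (median -0.19), with Bdh1 at -0.84 (SE 0.51) and Oxct1 at -0.37 (SE 0.26).

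Angptl4, Pdk4 and Hilpda are also known to respond to signals other than PPARs, so 2 further lists were described. Of the hypoxia-inducible genes 5 of 11 were above 0 (median -0.13). The glucose transporter Slc2a1 was at 27.3 ± 7.93 CPM in sham and 18.4 ± 5.97 CPM in pMCAO libraries (log2 fold change -0.57, SE 0.29), with 5 of 5 pMCAO libraries below the sham mean. Ddit4, which hypoxia and glucocorticoids both induce, was at 15.5 ± 8.99 and 32.2 ± 23.8 CPM (1.05, SE 0.54). Of the glucocorticoid-induced genes 8 of 8 were above 0 (median 0.17), but 4 of 8 were without sham replicate 3 and without both Xist libraries, and 5 of 8 without pMCAO replicate 4. Tsc22d3 was at 144 ± 74.0 CPM in sham and 212 ± 47.0 CPM in pMCAO libraries (0.55, SE 0.31), and Klf9 at 13.7 ± 8.47 and 20.4 ± 10.6 CPM (0.58, SE 0.42). None of these genes passed the false discovery rate of 0.05 in edgeR.

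**Figure D4:**
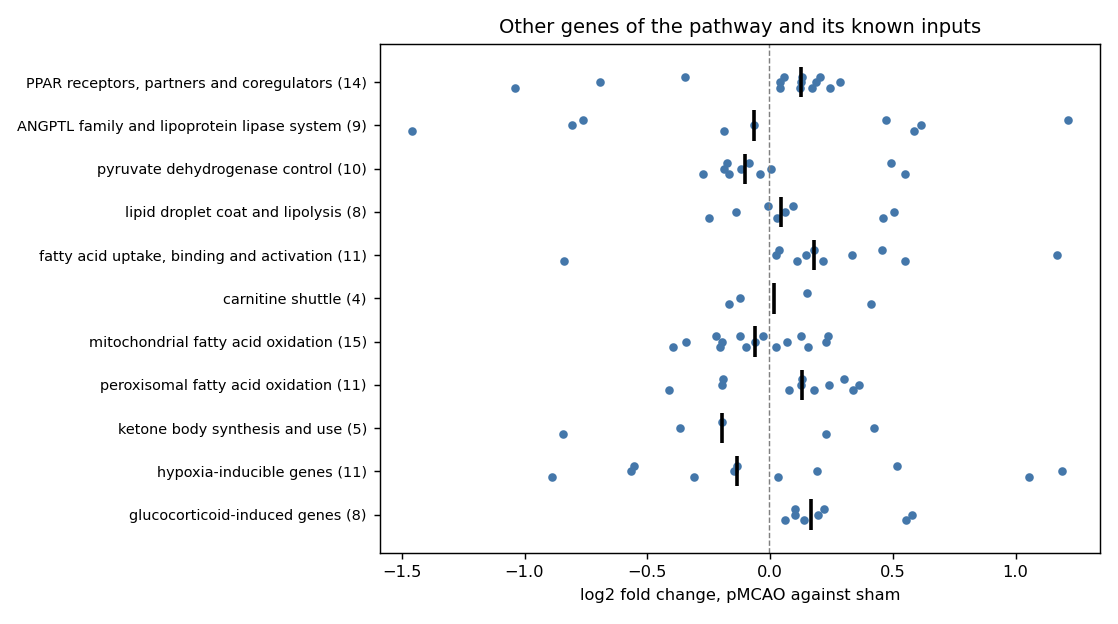
Each row is a list of genes with the number tested in brackets, points are the log2 fold changes of its genes after pMCAO (horizontal axis), and the dashed line is the median of all genes tested. The 8 glucocorticoid-induced genes lie above 0 with all 10 libraries (4 of 8 without both Xist libraries or without sham replicate 3), the points of the other lists lie on both sides of 0, and no point passed the test.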

How the data were processed

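The authors deposited 1 table for the series with whole-number counts per gene, not normalized, beside their CPM values and the columns of their own comparison (log2 fold change, mean expression, p-value and FDR), neither of which was used. Per the labels, libraries were made from 2.0 ng of total RNA with the Trio kit after removal of ribosomal RNA and read as pairs. The submitters' processing notes name STAR, featureCounts, limma, GRCm38 and mm10. Versions, strandedness and batches are not given in the sources used here, so reads from overlapping or antisense genes cannot be told apart. The table lists 17279 genes.

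Groups came from the treatment label. Counts were filtered with filterByExpr, scaled by TMM and compared with edgeR 4.0.16 (quasi-likelihood test, R 4.3.3) over all 10 libraries without covariates, at a Benjamini-Hochberg FDR of at most 0.05. Standard errors are the log2 fold change divided by the root of the F statistic. For single values per library, exact permutation tests were run, two-sided. Alternatives were DESeq2 1.42.0, limma-voom with and without sample quality weights (limma 3.58.1), upper-quartile scaling, scaling to library totals, no filter, a stricter one (over 1 CPM in 5 or more libraries), a call that also needs a log2 fold change of at least 1, another gene length, the replicate block, and leaving out both pools, both Xist libraries or each library. The edgeR, DESeq2 and limma-voom fits were tested on simulated data. Among pairs of libraries within a group, the smallest difference was 39.2 chi-square units per degree of freedom, so none was a repeat of another of its group. Pairs across the groups were not compared in this way. The p-values of the group comparisons set the difference between groups against the spread between these libraries. That spread includes replicate 1 of each group, which is named as a pool.

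The genes and lists were chosen with earlier results of these data known. The text names all 9 genes, the 2 with the smallest p in each list and the 5 most like Angptl4, and other genes only where it says so. Some genes that these rules give are not reported here. Exon lengths and gene positions are from GENCODE M21 on GRCm38, which matched 17193 genes.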

Additional observations from a re-analysis of the deposited data

Results flagged for a closer look

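Acaa2 in pMCAO replicate 2 stood apart from its group. At 49.7 CPM it was above the 32.7 to 35.0 CPM of the other 4 pMCAO libraries, and on the log2 CPM scale the gap took up 0.833 of the range of the group, above Dixon's limit of 0.71 for 5 samples. On that scale it was the 1 case among 40 groups of libraries examined, where chance gives about 2. On the CPM scale, added after the values were seen, the ratio was 0.860, and sham replicate 4 also passed the limit for Hilpda (0.775) and Pdk4 (0.736).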

How the results depend on the processing

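In all alternatives run, 0 of the 8 genes beside Angptl4 and 0 of the 87 pathway genes passed the false discovery rate. Angptl4 was not called either, but as it was picked for its rise this is a description and not a test of it. Pdk4, Plin2, Cpt1a, Acadm and Ppard kept their sign. Angptl4 did so too, but it was picked for its rise and its groups did not overlap, so this was not a check. The adjusted p of the 8 genes beside Angptl4 was between 0.373 and 1.00 over the alternatives. DESeq2 called 3 genes of all against 0 in edgeR. At an unadjusted p under 0.05, edgeR had 799 genes, limma-voom with sample weights 1888, the fit without both pools 462, and leaving out single libraries 575 (pMCAO replicate 4) to 1268 (pMCAO replicate 2). The log2 fold change of Pparg was -0.12 with limma-voom, -0.11 without both pools, -0.19 without both Xist libraries and -0.17 to 0.31 with single libraries left out. That of Hilpda was 0.093 with limma-voom sample weights, -0.85 without both pools and -0.75 to 0.23 with single libraries left out, and that of Acaa2 -0.082 to 0.15. The list medians of receptors, peroxisomal and ketone genes kept their sign in 19 of 19 alternatives, and those of the other 6 pathway lists turned in 1 to 8. The hypoxia-inducible and glucocorticoid-induced lists were rerun without libraries after the data were seen. With the longest transcript as gene length, 2 genes changed rank in the mean level over both groups. The Ppard and Angptl4 means did not change places after pMCAO with that length. The cause of these shifts was not tested, apart from the fewer libraries in the fits that leave some out.

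The labels do not say that shared replicate numbers pair the libraries, and the data leave it unsettled. Same-numbered libraries correlated in their deviations at -0.0326 (replicate 3) to 0.535 over 11206 genes, with a mean of 0.305, and 3 of 5 sham libraries were closest to their own number, but not every pair was above 0.1, so the numbers were not used as pairs. With the replicate block, 1303 genes had an unadjusted p under 0.05, Pparg was at -0.088 and no gene was called.

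The log2 difference in total counts was -0.926 without both pools, -0.877 without both Xist libraries (neither past a p of 0.05), and -1.42 to -0.884 with single libraries left out. Without both Xist libraries the log2 difference was -0.22 for macrophage, 0.17 for B and plasma cell and 0.28 for dendritic cell markers, and without both pools it was 0.024 for dissociation genes. With single libraries left out it ranged from -0.13 to 0.27 for macrophage, -0.41 to 0.021 for endothelial, -0.94 to 0.26 for B and plasma cell, -0.22 to 0.11 for neutrophil, -0.45 to 0.17 for dendritic cell, -0.016 to 0.79 for eosinophil markers and -0.23 to 0.20 for dissociation genes. Depth limits Pdk4 most, with as few as 3 counts in a library.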
